A study of Mus musculus with 24 samples.

Results

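The genes described here encode the machinery of oxidative phosphorylation in oculomotor and spinal motor neurons made from mouse embryonic stem cells. Nuclear members were the rows of the RPKM table (reads scaled to transcript length and to the mapped reads of the sample) whose symbols name a subunit of complex I (Nduf followed by a, b, c, s or v and a number), complex II (Sdha to Sdhd), complex III (Uqcr), complex IV (Cox4 to Cox8) or complex V (Atp5). Mitochondrial members were all rows whose symbol begins with mt-. Of the 22889 entries in the table, 83 were nuclear members and 15 were mitochondrial members, 98 in all. The nuclear members comprised 36 genes of complex I, 4 of complex II, 8 of complex III, 18 of complex IV and 17 of complex V, and 82 of them could be placed in GENCODE M21, on 19 nuclear chromosomes. The mitochondrial rows were 13 protein-coding genes and 2 ribosomal RNAs, with no transfer RNA. The symbol rule also takes in a few genes that are not structural subunits, such as Atp5sl, an assembly factor of complex I that its symbol places with complex V, and Ndufa4, which is assigned to complex IV although its symbol counts it here among the genes of complex I.

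Cultures of both kinds were patterned for 5 days and then sorted by fluorescence into a GFP-positive and a GFP-negative fraction. Oculomotor cultures came from the Islet1-GFP/NesEPhox2a line, received 250 nM SAG (a smoothened agonist) and 100 ng/ml FGF8, and gave the fractions OMN+ and OMN−. Spinal cultures came from the Hb9-GFP line, received 500 nM SAG and 100 nM retinoic acid, and gave the fractions SC+ and SC−. Each of the 4 groups held 6 samples, 24 in all. The Phox2a transgene is driven by the nestin enhancer, which restricts it to neuronal progenitors, and it is present in both oculomotor fractions. Cell line, reporter and morphogens all change together between the cultures, so their contributions cannot be told apart. In bulk RNA of sorted cells, fewer cells of a type and less RNA per cell also cannot be told apart.

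Complexes I to IV of the inner mitochondrial membrane pass electrons from NADH and succinate to oxygen, and complexes I, III and IV pump protons, which complex V uses to make ATP. Complex II is built from nuclear genes alone, whereas the other complexes combine nuclear subunits with a few encoded on the mitochondrial genome, which is transcribed as long precursors and cut into separate RNAs. Several small subunits of complex IV exist as alternative isoforms: Cox8b, Cox6a2 and Cox7a1 are known from heart and skeletal muscle, Cox6b2 and Cox8c from testis, and Cox4i2 from lung. Motor neurons depend heavily on this pathway, and cultured pluripotent cells are known for their high rate of glycolysis.

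Read depth, recovered from the steps between low RPKM values, was 751962 to 7669586 reads per sample, with 94.6 to 97.2% of the values used coming out as whole reads within 2%. Replicates 5 and 6 were deeper (4814658 to 7669586 reads, n = 8) than replicates 1 to 4 (751962 to 4650495 reads, n = 16), without overlap. Phox2a, overexpressed in the oculomotor line, lay at 25.4 to 53.4 RPKM in OMN+ replicates 1 to 4, but at 6.08 and 5.83 in replicates 5 and 6. It was 3.09 to 6.43 in OMN−, 8.59 in SC+ replicate 1, at most 1.42 in the other SC+ samples and at most 2.42 in SC−. Isl1 lay at 141.4 to 368.9 RPKM in OMN+ and at 0.696 to 1.87 in OMN−, and Mnx1 (Hb9) at 43.1 to 149.2 in SC+. Among SC− samples Mnx1 was 69.4 in replicate 4 and at most 4.73 in the others, and SC+ and SC− replicate 4 correlated at 0.956 across genes, against a median of 0.846 for fractions sharing culture and number. The libraries labelled SC+ and SC− replicate 4 had Isl1 at 7.63 and 8.56 RPKM, where the other SC+ samples had 50.4 to 122.9, and both genes were higher in the library labelled SC− than in the one labelled SC+. In SC− replicate 2 the 3 gene models Gm10800, Gm10801 and Gm21738 held 68.8% of summed RPKM, which lowers every other RPKM value of that sample. Counts and medians that these 3 spinal samples move are therefore also given without them, a choice made after seeing the data. Summed RPKM of 16 neuronal markers was 1769.7 to 2633.4 in OMN+, 29.4 to 106.0 in OMN−, 149.2 to 2266.6 in SC+ and 71.7 to 324.7 in SC−. Chat was at 0 in all OMN− samples. Summed RPKM of 8 pluripotency markers was 1.01 to 265.5, 730.3 to 9881.6, 15.6 to 12417.9 and 109.4 to 5993.5 in the same order, and that of 12 progenitor markers 177.3 to 652.0, 355.0 to 775.0, 414.6 to 1572.8 and 496.7 to 2853.4. The part of these other cells in the differences below was not tested. No source used here says whether samples of one group came from separate differentiations, so p-values measure the spread between these samples, which may be technical.

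All 98 members passed the filter on low values (above 0 RPKM in at least 2 samples). On average over the 24 samples, nuclear members ranged from 0.245 RPKM for Cox8c to 1112.2 RPKM for Cox7c, with a median member of 179 RPKM. In complex I, the accessory subunits Ndufa2 and Ndufa1 had the highest means, 863.8 and 612.7 RPKM. In complex II, the iron-sulfur subunit Sdhb averaged 128.9 and the membrane anchor Sdhd 123.2 RPKM. The small complex III subunits Uqcr11 and Uqcr10 averaged 934.5 and 682.2 RPKM. In complex IV, Cox7c and Cox6b1 led with 1112.2 and 891.0 RPKM, and in complex V, Atp5k (subunit e) and Atp5h (subunit d) with 768.3 and 308.5 RPKM. These leading members varied widely within each group: Cox7c spanned 406.4 to 1686.6 RPKM in OMN+, 561.0 to 2566.9 in OMN−, 470.1 to 1896.7 in SC+ and 233.4 to 4179.4 in SC−. RPKM is scaled to transcript length, so these levels may be set beside each other, with the limit that most of these transcripts are short. Of the 15 mitochondrial rows, the 16S ribosomal RNA mt-Rnr2 had the highest mean (13759.3 RPKM) and mt-Nd5 the lowest (452.2 RPKM).

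Alternative isoforms of complex IV were mostly far below their general counterparts. Cox4i2 reached at most 1.95 RPKM and was at 0 in 9 of 24 samples, beside a mean of 521.4 RPKM for Cox4i1, so that it made up at most 0.450% of the pair. Cox6a2 reached at most 13.8 RPKM and was at 0 in 11 samples, beside 729.6 RPKM for Cox6a1, at most 1.50% of the pair. Cox7b2 was at 0 in 19 samples and Cox8c in 21, beside a mean of 373.3 RPKM for Cox7b and 643.0 RPKM for Cox8a. They reached at most 3.06 and 2.25 RPKM. Neither was seen in any OMN+ sample, nor in most OMN− samples, and Cox8c was not seen in any SC− sample. Cox7a1 was higher, averaging 65.2 RPKM beside 606.1 RPKM for Cox7a2, and its share of the pair averaged 15.0% in OMN+, 12.0% in OMN−, 7.65% in SC+ and 7.97% in SC−. The libraries labelled replicate 4 had the highest spinal shares, 19.5% in SC+ and 25.7% in SC−, and without the 3 spinal samples the means were 5.28 and 5.35%. Cox6b2 also reached a share of the same order in these libraries, 20.7 and 21.1% of Cox6b2 plus Cox6b1, with 12.2% in SC− replicate 2 and means of 1.87 and 2.92% without the 3 samples. The remaining complex IV genes of this kind, Cox7a2l, a factor in joining complexes III and IV, and Ndufa4, averaged 326.1 and 414.6 RPKM. A pair of isoforms, Cox8b and Cox6b2, differed between the oculomotor fractions.

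Because Cox8b and Cox6b2 carry the differences described next, the 150 bases upstream of their RefSeq starts are shown with those of their general counterparts, on build GRCm38.p6 and all from the minus strand. The windows are chr19:7217617-7217766 for Cox8a, chr7:140900447-140900596 for Cox8b, chr7:30626115-30626264 for Cox6b1 and chr7:4753095-4753244 for Cox6b2. GENCODE M21 places the Cox8b gene at chr7:140898945-140900446 and the Cox6b2 gene at chr7:4751792-4753094. Capitals mark the only matches, on either strand, to the letters TGCGCA (NRF1), CCGGAAG (ETS), AAGATGG (YY1), CCAAT and CAGCTG (an E-box).
Cox8a: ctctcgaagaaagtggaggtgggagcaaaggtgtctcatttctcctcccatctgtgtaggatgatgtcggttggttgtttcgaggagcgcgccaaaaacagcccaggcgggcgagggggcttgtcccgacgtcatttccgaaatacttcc
Cox8b: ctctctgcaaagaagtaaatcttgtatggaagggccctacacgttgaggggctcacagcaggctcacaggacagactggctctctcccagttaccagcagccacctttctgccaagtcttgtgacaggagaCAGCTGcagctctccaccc
Cox6b1: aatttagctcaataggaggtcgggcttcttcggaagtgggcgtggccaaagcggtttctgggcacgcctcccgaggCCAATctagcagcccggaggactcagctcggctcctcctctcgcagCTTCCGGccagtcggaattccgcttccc
Cox6b2: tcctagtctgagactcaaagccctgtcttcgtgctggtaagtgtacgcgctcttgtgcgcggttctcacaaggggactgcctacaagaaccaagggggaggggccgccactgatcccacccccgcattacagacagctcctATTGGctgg
The printed window of Cox8a held none of the 5 sets of letters, that of Cox8b a CAGCTG, that of Cox6b1 a CCAAT and a CCGGAAG read on the other strand, and that of Cox6b2 a CCAAT read on the other strand.

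RefSeq promoters were found for 69 of the 83 nuclear members, 75 promoters in all. Over the 250 bases upstream of the start, TGCGCA occurred in 20.0% of member promoters and in 6.43% of all 32851 promoters, and CCGGAAG in 16.0% and 6.91%. CCAAT occurred in 42.7% of member promoters and 33.8% of all, AAGATGG in 2.67% and 4.49%, and CAGCTG in 8.0% and 13.0%. These are matches of letters only, and binding was not measured.

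The comparison of GFP-positive with GFP-negative cells within the oculomotor cultures asks how the sorted motor neurons differ from the remaining cells of the same dish. On the log2(RPKM + 1) scale, used throughout and known to understate the changes of low genes, 2 of the 83 nuclear members passed an adjusted p of 0.05, Cox8b higher and Cox6b2 lower in OMN+, beside 6.15% of all 22179 genes tested. No mitochondrial member passed by limma with Benjamini-Hochberg adjustment, nor at an unadjusted p under 0.05, where 4 nuclear members stood. Unchanged genes pass an unadjusted threshold of 0.05 at that same rate, so such counts, here and below, are not read as calls. Cox8b and Cox6b2 were also the only members whose OMN+ and OMN− samples did not overlap, beside 6.52% of all genes.

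Cox8b, the muscle-type form of a small complex IV subunit, was detected in every OMN+ sample, at 2.26 RPKM at the lowest, 6.44 at the median and 23.6 at the highest. It was at 0 in 5 OMN− samples and at 0.448 RPKM in replicate 6. Every OMN+ sample thus lay above every OMN− sample, and same-numbered samples differed in the same direction in 6 of 6 pairs. The difference was 2.91 (SE 0.596) on the log2 scale, with a limma adjusted p of 0.003414. The level was low throughout: the gene has 1 transcript of 360 bp, and its values correspond to 69 reads over all OMN+ samples against 1 read over all OMN− samples, a ratio per read of depth of 60.4 (95% exact interval 10.5 to 2420.6). These intervals cover counting error only, and a count of 0 in an OMN− sample allows up to 1.34 to 6.19 RPKM depending on its depth (3 reads), a range that reaches above the lowest OMN+ values. Cox8b was 1.74% ± 1.37 (SD, n = 6) of Cox8a plus Cox8b in OMN+. Cox8a itself, at 536.2 ± 164.1 RPKM in OMN+ and 796.0 ± 255.3 in OMN− (SD, n = 6), had a log2 difference of −0.55 with a limma adjusted p of 0.564. Summed RPKM of 8 muscle and heart markers was 1.61 to 12.7 in OMN+, 2.51 to 12.6 in OMN−, 1.44 to 7.07 in SC+ and 8.10 to 26.6 in SC−.

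Cox6b2, the testis-type form of another small subunit, moved the other way. It ranged from 1.28 RPKM (median 8.71) to 15.2 RPKM in OMN+ and from 31.3 RPKM (median 43.4) to 61.9 RPKM in OMN−. All OMN+ samples lay below all OMN− samples, and the pairs of equal number differed by −4.24 to −1.66 on the log2 scale, lower in 6 of 6. The fitted difference was −2.43 (SE 0.594), with a limma adjusted p of 0.01388. Its counterpart Cox6b1 ranged from 503.9 (median 810.2) to 1911.1 RPKM in OMN+ and from 570.6 (median 821.0) to 2138.0 in OMN−, overlapping fully, with a log2 difference of −0.20 and a limma adjusted p of 0.9883. The Cox6b2 share of the pair was 1.02% ± 0.656 in OMN+ and 4.64% ± 1.88 in OMN− (SD, n = 6). Within replicates 1 to 4 alone neither gene passed (Cox8b limma adjusted p 0.0686, Cox6b2 0.1037), and within replicates 5 and 6 alone Cox8b did (0.02616) and Cox6b2 did not (0.1154), with the directions unchanged.

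**Figure D1:**
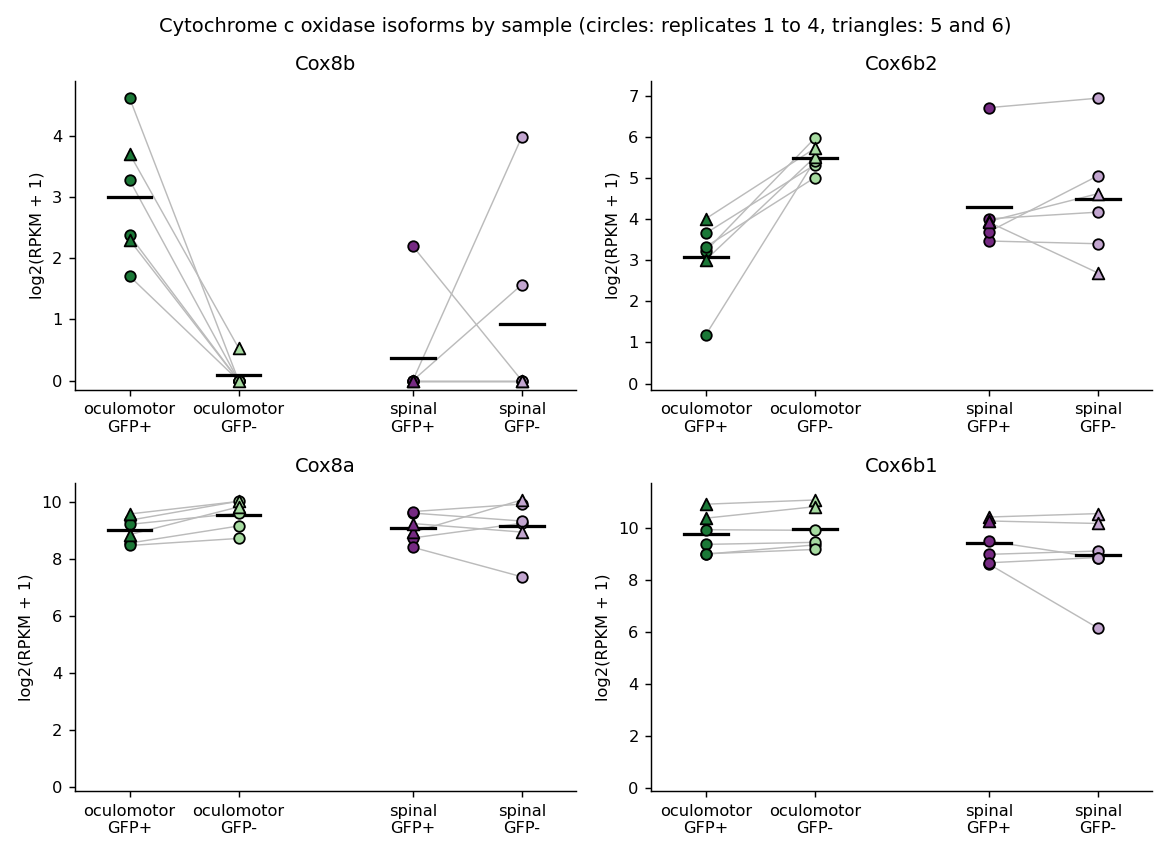
log2(RPKM + 1) of Cox8b, Cox6b2 and their general counterparts Cox8a and Cox6b1 in each of the 24 samples by group. Circles are replicates 1 to 4, triangles replicates 5 and 6, grey lines join samples of the same culture and number, and black bars are group means. OMN+ and OMN− samples do not overlap for Cox8b or Cox6b2, and overlap for Cox8a and Cox6b1.

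Most other nuclear members were slightly lower in OMN+. Differences were negative for 64 of 83 with a median of −0.25, against 0 over all genes tested. The medians were −0.22 for complex I, 0.13 for complex II, −0.44 for complex III, −0.29 for complex IV and −0.33 for complex V, where 1 of 17 members was positive. In same-numbered pairs, 29 nuclear members (34.9%) were lower in OMN+ in all 6 pairs and 3 (3.61%) higher, beside 11.2% and 12.0% of all genes. Among the 615 genes averaging at least 100 RPKM, which is closer to the level of these members, 41.1% were lower in all 6 pairs and 16.3% higher, with a median of −0.34. The lean was smaller under another scaling: with the mitochondrial rows and the 3 gene models removed from each total, 45 of 83 differences were negative, their median was −0.04, and 9 members (10.8%) were lower in all 6 pairs. Over all genes, that scaling turned 845 higher and 519 lower calls into 1049 and 385.

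Samples of equal number deviated together within the oculomotor cultures, and with the replicate number as a block 9 nuclear members passed in place of 2 (beside 16.4% of all genes), 1 higher and 8 lower (beside 8.21% lower). The 7 genes added were named after their values were seen. Atp5g1, one of 3 genes for subunit c, the proton-carrying ring of complex V, had 31.9 to 156 RPKM (median 56.2) in OMN+ and 46.3 to 277 (median 91.5) in OMN−. The groups overlapped, yet OMN+ was lower in 6 of 6 pairs, by 0.52 to 0.94, and the blocked difference was −0.73 (SE 0.159, limma adjusted p 0.00675). Ndufs6, a complex I subunit near its iron-sulfur centres, had 268.1 to 525.2 RPKM (median 346.5) in OMN+ and 525.2 to 752.6 (median 711.9) in OMN−, meeting at 1 value, with a blocked difference of −0.93 (SE 0.216, limma adjusted p 0.009814). The others were Ndufa5 (−0.54), Atp5j (−0.63), Uqcrb (−0.62), Atp5c1 (−0.67) and Ndufb2 (−0.61), with limma adjusted p from 0.02057 to 0.04616. With the block and the rescaled totals together 6 passed, 3 lower (Cox6b2, Atp5g1, Ndufs6) and 3 higher (Cox8b, Ndufv3 and Sdhc), and with the block and median-ratio scaling 18 passed, 17 of them lower. With the block and without the 3 spinal samples, which bear on it only through the spread and the genes tested, 17 passed, 2 higher and 15 lower, the 9 above among them. Exons of Atp5j, Ndufs6, Uqcrb and Ndufb2 overlap genes on the opposite strand, and the counting is not stated to use strand, so reads of the overlaps cannot be told apart.

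In the spinal cultures the same comparison gave no call. By limma no nuclear and no mitochondrial member passed between SC+ and SC−, at an adjusted p of 0.05 or at an unadjusted p under 0.05, beside 1.23% of all genes called, and none had fractions that did not overlap, beside 0.469%. Nuclear differences were positive for 61 of 83 with a median of 0.18, beside 0.10 among genes averaging at least 100 RPKM. Without the 3 spinal samples 27 were positive and the median was −0.12, so the lean changed sign with them. No member was lower or higher in all 6 pairs. Cox8b was at 0 in 5 SC+ and 4 SC− samples, with 3.58 RPKM in SC+ replicate 2 and 14.8 and 1.96 in SC− replicates 3 and 4 (log2 difference −0.56, limma adjusted p 0.8294). Cox6b2 ranged from 10.1 (median 14.4) to 104 RPKM in SC+ and from 5.47 (median 20.4) to 123 in SC−, with the highest value of each fraction in replicate 4 and full overlap of the rest (log2 difference −0.19, limma adjusted p 0.9663). Of the 16 neuronal markers 15 passed as higher in OMN+ than OMN− and 10 as higher in SC+ than SC−, and 5 had an interaction of culture and fraction past the limma threshold.

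Whether the step between fractions differed between the cultures was tested as an interaction. No member of either list passed by limma, 3 nuclear and 0 mitochondrial members had an unadjusted p under 0.05, and 0.32% of all genes passed. With the replicate block 2 passed (beside 2.04% of all genes), both lower in the oculomotor step. For Cox6b2 the step was lower by −2.24 (SE 0.491, limma adjusted p 0.03541 with the block, 0.4559 without). For Atp5g1 the step was lower by −1.15 (SE 0.225, 0.01978 with the block, 0.822 without). Atp5g1 was lower in OMN+ in 6 of 6 oculomotor pairs and was higher in SC+ in 4 of 6 spinal pairs, by −0.10 to 1.03. The Cox8b interaction was 3.47 (SE 0.842), with a limma adjusted p of 0.08075 without and 0.05513 with the block, and it passed in 1 of 24 fits that left out 1 sample (adjusted p 0.03659 to 0.1533), the one without SC+ replicate 2, the only SC+ sample with Cox8b. Without the 3 spinal samples and with the block, the adjusted p was 0.01736 for Atp5g1 (−1.13), 0.08709 for Cox6b2 (−2.19) and 0.03622 for Cox8b (3.90), so 2 members again passed but the call of Cox6b2 was lost. Without them and without the block none of the 3 passed (limma adjusted p 0.8017, 0.1227 and 0.09009). Differences over the nuclear members were negative for 69 of 83 with a median of −0.39, and for 51 with a median of −0.11 without the 3 spinal samples. The median step of nuclear members was −0.25 in the oculomotor and 0.18 in the spinal cultures. Genes averaging at least 100 RPKM had median steps of −0.34 and 0.10, in the same directions.

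**Figure D2:**
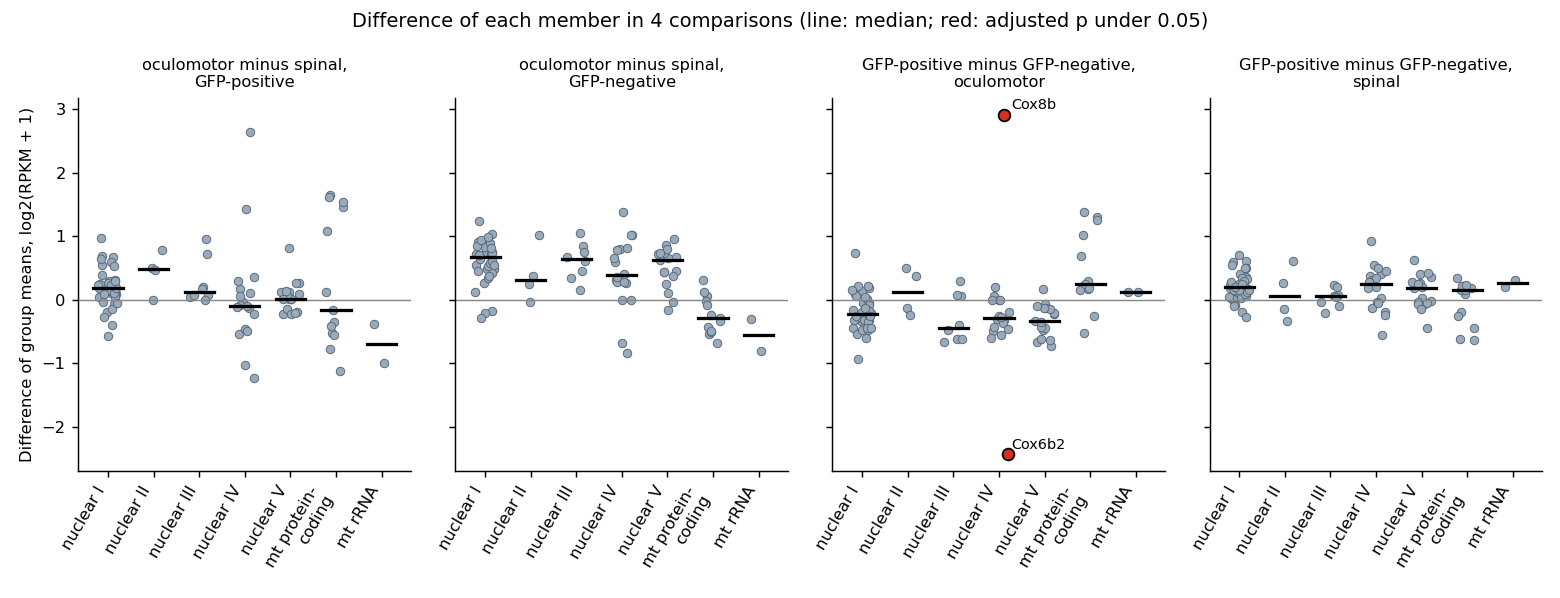
Difference in log2(RPKM + 1) of every member in 4 comparisons, 1 panel each, with members grouped by complex and genome along the x axis. Points are members, black lines are group medians, and red points passed a limma adjusted p of 0.05. Red points appear in 1 panel, OMN+ against OMN−, for Cox8b above and Cox6b2 below.

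The comparison of the sorted neurons, OMN+ with SC+, bears on the study's question of how resistant oculomotor neurons differ from vulnerable spinal ones. No nuclear or mitochondrial member passed by limma on the 12 GFP-positive samples, where 0.603% of 19240 genes did, and none had groups that did not overlap, beside 1.43%. Like the other group comparisons without a block, this fit had no term for the replicate set. The differences between the sets described below are therefore part of its spread, and their bearing on the calls was not tested. With the replicate number as a block no member passed either, and Cox8b had a limma adjusted p of 0.1582 (SE 0.623). The study's own test on counts, which could not be rerun here, called more genes in this comparison. At an unadjusted p under 0.05 stood 1 nuclear member, Cox8b, and 0 mitochondrial members. Its difference of 2.63 (SE 0.554) had a limma adjusted p of 0.05433, and passed in 1 of 12 fits that left out 1 sample (0.0155 to 0.1286), the one without SC+ replicate 2. By reads the ratio of OMN+ to SC+ was 23.1 (95% exact interval 7.57 to 114.6), from 69 and 3 reads. Cox7a1, another muscle-type isoform, ranged from 29.4 (median 63.7) to 250 RPKM in OMN+ and from 8.04 (median 17.5) to 98.5 in SC+. Its difference of 1.42 did not pass (limma adjusted p 0.5069). In replicates 1 to 4 Cox7a1 was 29.4 to 74.5 RPKM in OMN+ and 8.04 to 18.4 in SC+, apart from 89.5 in SC+ replicate 4. In replicates 5 and 6 it was 250 and 128 RPKM in OMN+ and 98.5 and 12.7 in SC+. Over the nuclear members 58 of 83 differences were positive with a median of 0.11, beside −0.04 over all genes. By complex the medians were 0.18, 0.48, 0.12, −0.09 and 0.02 for complexes I to V. Mitochondrial differences ranged from −1.12 to 1.64 with a median of −0.35, positive for 6 of 15, among them all 5 genes of complexes IV and V. Without SC+ replicate 4, the 1 of the 3 spinal samples in this comparison, nuclear differences were positive for 53 of 83 with a median of 0.08 and mitochondrial ones for 9 of 15 with a median of 0.01, and no member passed.

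Between the GFP-negative fractions, OMN− and SC−, no member of either list passed by limma (5 nuclear and 0 mitochondrial members at an unadjusted p under 0.05), beside 0.96% of all genes, and none had groups that did not overlap, beside 1.27%. Nuclear differences were positive for 75 of 83, with medians of 0.67, 0.31, 0.64, 0.38 and 0.62 in complexes I to V and 0.61 in all. Without the 3 spinal samples 62 were positive and the median was 0.24. With the mitochondrial rows and the 3 gene models removed from each total, 60 were positive with a median of 0.24, and the median of all genes shifted from −0.04 to −0.22. Mitochondrial differences were positive for 3 of 15, with a median of −0.30. The median nuclear member was thus higher and the median mitochondrial member lower in OMN−. These medians were not tested, and no single member passed.

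The share of summed RPKM in the mitochondrial rows varied within every group. It was 11.0% ± 4.56 in OMN+, 7.98% ± 3.67 in OMN−, 12.4% ± 6.06 in SC+ and 10.1% ± 4.12 in SC− (SD, n = 6), and the 4 groups overlapped. OMN+ was higher than OMN− in 5 of 6 pairs, by 3.04 percentage points on average, and SC+ higher than SC− in 4 of 6, by 2.25. OMN+ was lower than SC+ by 1.37 points and OMN− lower than SC− by 2.16. These differences were not tested. They are smaller than the SD of single samples within each group, which is not the error of a mean. That SD also includes the replicate sets: OMN+ averaged 8.62% in replicates 1 to 4 and 15.8% in replicates 5 and 6. The difference of OMN+ from SC+ was −3.32 points in replicates 1 to 4 and 2.53 in replicates 5 and 6, and 0.68 without SC+ replicate 4, whose share was 22.6%. The difference of SC+ from SC− was 1.13 points without the 3 spinal samples, and 0.07 with the 3 gene models left out of the totals. As a share of reads, estimated by weighting RPKM with transcript length, the mitochondrial rows held 4.94% in OMN+, 4.06% in OMN−, 6.19% in SC+ and 5.70% in SC−, with OMN+ higher in 4 of 6 pairs and SC+ in 3 of 6. Nuclear members held 4.47% of summed RPKM in OMN+, 5.01% in OMN−, 4.32% in SC+ and 4.24% in SC−. The ratio of mitochondrial to nuclear summed RPKM averaged 2.49 in OMN+, 1.61 in OMN−, 3.24 in SC+ and 3.77 in SC−, with medians of 2.83, 1.46, 2.27 and 2.09. The highest samples were SC− replicate 2 at 10.6 and then SC+ replicate 4, and without the 3 spinal samples the means were 2.49 in SC+ and 1.83 in SC−.

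**Figure D3:**
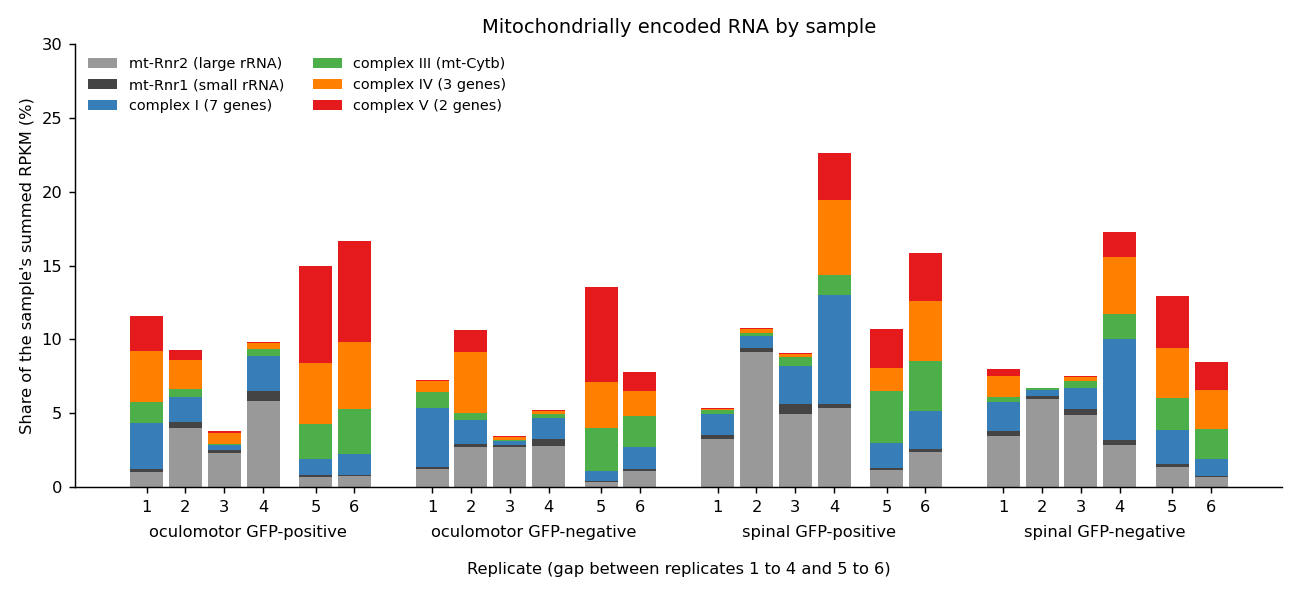
Share of summed RPKM (percent) taken by the mitochondrial rows in each of the 24 samples, as stacked bars by gene group, arranged by group and replicate. mt-Rnr2 fills a median of 54.3% of the mitochondrial RPKM in replicates 1 to 4 and 9.41% in replicates 5 and 6.

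The make-up of the mitochondrial RNA varied with the replicate number. mt-Rnr2 was 8.99 to 88.9% of mitochondrial RPKM (median 54.3%) in replicates 1 to 4 and 2.46 to 14.9% (median 9.41%) in replicates 5 and 6. The ATP synthase genes mt-Atp6 and mt-Atp8 together were 0.0935 to 20.4% (median 0.969%) and 16.7 to 47.3% (median 25.9%). The 4 groups contributed 4 and 2 samples each to these sets, so no group is confounded with them, but the labels do not say what distinguishes the replicates. Sequencing used 2 instruments with different read lengths, and which samples went on which is not given in the sources used here.

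Fitted with the group as a term, replicates 5 and 6 against 1 to 4 gave 8 mitochondrial calls of 15 and 53 nuclear calls of 83, beside 25.4% of all genes. The split was made with earlier results of these data known. Calls higher in replicates 5 and 6 numbered 49 among nuclear members, beside 7.37% of all genes, and calls lower numbered 4, beside 18.0%. The nuclear median was 0.88, against −0.10 for all genes, and the nuclear share of summed RPKM rose from 3.55% ± 0.974 (SD, n = 16, highest 4.72%) to 6.43% ± 0.603 (SD, n = 8, lowest 5.55%), without overlap. Higher calls were 28 of 36 in complex I, 2 of 4 in complex II, 3 of 8 in complex III, 7 of 18 in complex IV and 9 of 17 in complex V.

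Among the leading genes, Ndufa1, a small membrane subunit of complex I, ranged from 74.7 (median 273.2) to 587.8 RPKM in replicates 1 to 4 and from 936.7 (median 1198.7) to 2296.7 in replicates 5 and 6. No sample of the first set reached the second, and the difference was 2.28 (SE 0.285, limma adjusted p 6.578e-06). Ndufb6, another membrane subunit of complex I, ranged from 2.69 (median 91.5) to 323.6 and from 319.9 (median 435.3) to 672.4 RPKM, touching at the edges, with a difference of 2.79 (limma adjusted p 0.0003069). Cox5a, a matrix subunit of complex IV, had a median of 24.7 and 138 RPKM and overlapped (2.46, limma adjusted p 0.0007291). Ndufb4, Ndufa12, Ndufb8, Cox7a2, Atp5j, Ndufa8 and Cox7c followed, with differences from 2.22 down to 1.67 on the log2 scale.

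Lower in replicates 5 and 6 were 4 nuclear members. Atp5d, the delta subunit of the complex V stalk, ranged from 37.7 (median 142.1) to 297.6 RPKM in replicates 1 to 4 and from 20.9 (median 41.5) to 67.8 in replicates 5 and 6, with some overlap (−1.79, limma adjusted p 0.0002603). Atp5sl had medians of 6.55 and 1.24 RPKM (−1.75, limma adjusted p 1.994e-05). Ndufv1, the NADH-binding subunit of complex I, had medians of 58.3 and 24.6 RPKM (−1.42, 0.0003874), and Sdhc, a membrane anchor of complex II, 50.7 and 20.9 RPKM (−1.20, 0.0001189).

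The mitochondrial genes did not all move one way. In RPKM, mt-Atp8 was 3.50 to 3889 (median 112.0) in replicates 1 to 4 and 1981 to 10302 (median 4286.9) in replicates 5 and 6, a difference of 4.89 (SE 0.985, limma adjusted p 0.0007248). Its neighbours mt-Atp6 (4.45, adjusted p 0.001584) and mt-Co3 (3.20, 0.00626) also rose, as did mt-Co1 (2.19, 0.03262) and, at the far end of the genome, mt-Cytb (2.75, 0.0007485), the last without overlap between the sets (at most 7705 RPKM against at least 8451). mt-Co2, between mt-Co1 and mt-Atp8, had 1.97 (0.07527). The ribosomal RNAs fell, mt-Rnr1 by 1.46 (0.000778) and mt-Rnr2 by 1.88 (0.005163) on the log2 scale, as did mt-Nd3, a complex I gene just past mt-Co3 (by 1.48, 0.01323). The other complex I genes, mt-Nd1, mt-Nd2, mt-Nd4, mt-Nd4l, mt-Nd5 and mt-Nd6, had differences from −0.37 to 0.40, none past the test. Annotated genes overlap by 43 bp for mt-Atp6 and mt-Atp8, by 7 bp for mt-Nd4 and mt-Nd4l and by 14 bp for mt-Nd5 and mt-Nd6, the last on opposite strands, so some of their reads cannot be assigned to 1 gene. Over all samples mt-Atp6 ran from 28.6 to 24242.3 RPKM and mt-Co3 from 28.7 to 6720.4. The ranges were 204.6 to 14797.9 for mt-Nd1 and 279.2 to 15645.9 for mt-Cytb. Whether reads of the adjacent genes from mt-Co1 to mt-Co3 also match other places in the genome was not tested. These differences in RPKM may therefore not be differences in RNA.

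**Figure D4:**
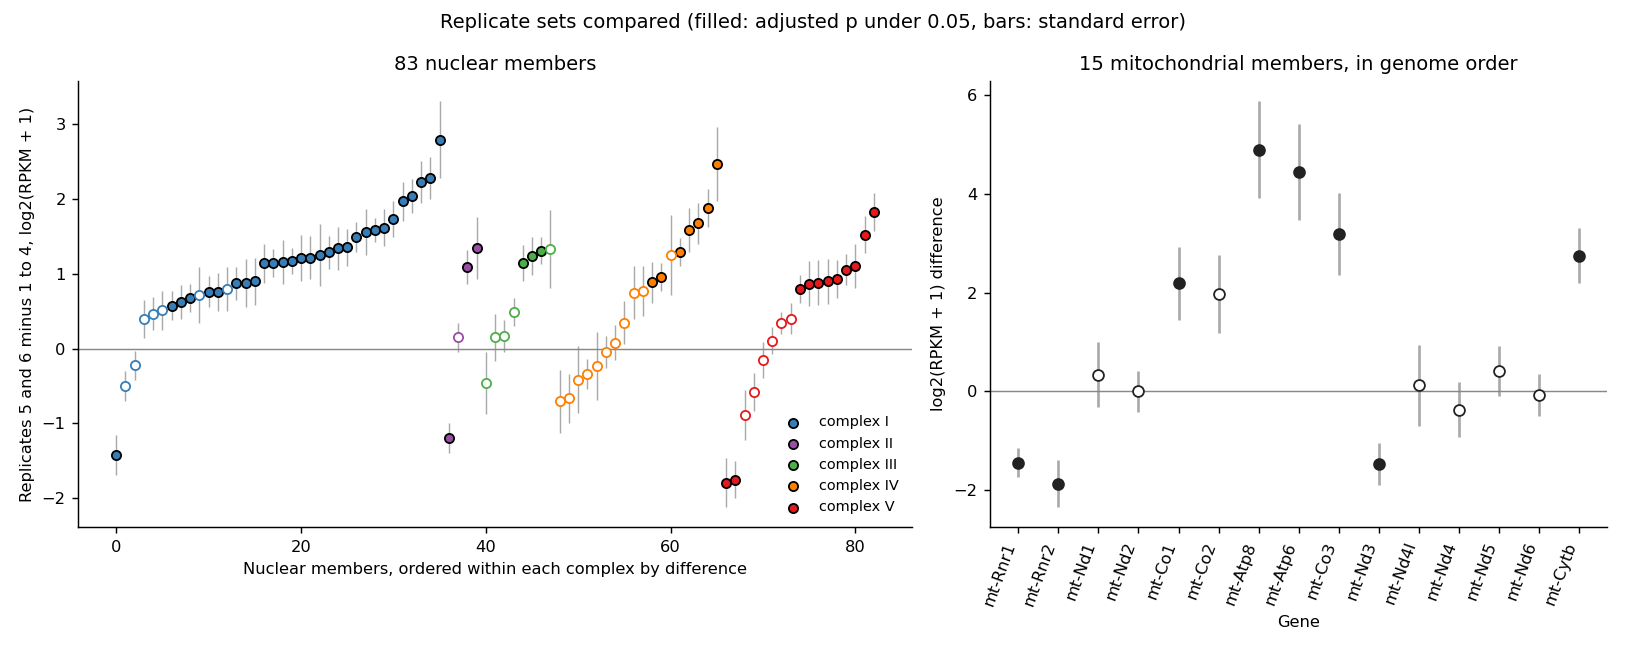
Difference in log2(RPKM + 1) between replicates 5 and 6 and replicates 1 to 4, with standard errors, for the 83 nuclear members ordered within each complex (left) and the 15 mitochondrial members in genome order (right). Of the nuclear members 67 lie above 0, and of the mitochondrial genes mt-Co1, mt-Atp8, mt-Atp6, mt-Co3 and mt-Cytb passed above 0 and the rRNAs and mt-Nd3 below, while mt-Co2 at 1.97 did not pass. Filled points passed a limma adjusted p of 0.05.

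Between the sets, 33 of 36 nuclear genes of complex I had positive differences with a median of 1.15 (28 called higher, 1 lower), while 3 of its 7 mitochondrial genes were positive (0 called higher, 1 lower). In complex V the medians were 0.79 over the 17 nuclear and 4.67 over the 2 mitochondrial genes, and the difference between the lists was not tested. For complex I the median nuclear gene averaged 112.3 RPKM in replicates 1 to 4 and 282.0 in replicates 5 and 6, while the median mitochondrial gene averaged 1356.7 and 794.7. The mitochondrial value was highest in the libraries labelled SC+ and SC− replicate 4, at 3419.8 and 3189.8 RPKM, and its medians over samples were 1114.5 and 779.6. On the log2 scale the 7 mitochondrial genes of complex I had a median difference of −0.004. For complex V the nuclear averages were 143.5 and 166.8 RPKM and the mitochondrial 1453.5 and 9458.0. Transcript length was looked at beside these changes: nuclear members had a median length of 655 bp (321 to 2675 bp, n = 82) against 2031 bp for all genes, and the change had a Spearman correlation of −0.14 with length across nuclear members, which share the same libraries. Among members of 500 to 750 bp, 66.7% were called higher, beside 29.4% of all genes of that length averaging at least 10 RPKM. Depth differed between the sets as given above, and its part in these changes was not tested. Without the 3 spinal samples 56 nuclear members passed (48 higher, 8 lower) and 9 mitochondrial.

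The genes around the pathway, from lists of assembly factors, carriers and metabolism, gave few calls between groups. Of 30 tested assembly factors of complexes II to V, 1 passed between OMN+ and OMN−: Cox19, a copper-delivery factor of complex IV, had 22.9 (median 33.5) to 46.6 RPKM in OMN+ and 5.51 (median 10.3) to 15.8 in OMN−, without overlap (1.69, SE 0.366, limma adjusted p 0.005422). Of 16 genes of the tricarboxylic acid cycle 1 passed, Suclg2, a subunit of succinate-CoA ligase, with 1.53 (median 2.34) to 9.60 RPKM in OMN+ and 8.08 (median 13.2) to 23.9 in OMN−, which overlapped (−1.83, limma adjusted p 0.01028). Of 22 glycolysis genes 1 passed, the monocarboxylate transporter Slc16a1, lower in OMN+ (3.04 to 5.79 RPKM) than OMN− (11.8 to 40.2 RPKM; −2.24, limma adjusted p 0.00533) and lower in SC+ than SC− (−2.13, 0.02303). No gene passed among 14 complex I assembly factors, 15 electron carrier and coenzyme Q genes, 7 subunits and regulators outside the symbol rule and 22 genes of mitochondrial gene expression, and none of any list passed in OMN+ against SC+ or OMN− against SC− by limma. With the replicate block, 8 of the 22 glycolysis genes and 5 of the 22 mitochondrial gene expression genes were lower in OMN+ and none higher, beside the 8.21% of all genes given above. That share covers genes at all levels. Of genes averaging at least 100 RPKM, 41.1% were lower in all 6 oculomotor pairs, beside 11.2% of all genes.

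Between the replicate sets, the counts below stand beside 7.37% of all genes called higher and 18.0% called lower. Those shares cover genes at all levels, and genes at higher levels were called more often. Complex I assembly factors had 6 higher and 1 lower call of 14, assembly factors of complexes II to V 10 and 2 of 30, and subunits outside the symbol rule 5 and 1 of 7. Glycolysis had 0 higher and 11 lower of 22, with a median of −1.08. Mitochondrial gene expression had 4 and 6 of 22, the tricarboxylic acid cycle 3 and 2 of 16, and electron carriers 2 and 2 of 15. Among named genes, cytochrome c (Cycs) differed by 1.79 (limma adjusted p 6.314e-05), the glucose transporter Slc2a1 by −2.73 (0.0002425) and pyruvate kinase Pkm by −1.87 (9.378e-06).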

How the data were processed

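Sorted cells were lysed without RNA extraction and made into poly(A)-primed SMART-seq2 libraries with Tn5, without molecular identifiers. As the study and the submitters' processing notes describe, the authors mapped reads to mm10 (GRCm38) with HISAT2 2.0.3 and obtained RPKM with rpkmforgenes. The deposited RPKM values are per gene and sample, without counts. The annotation is not given in the sources used here.

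RPKM was analysed as log2(RPKM + 1) with limma 3.58.1 (R 4.3.3, trended empirical Bayes) and Benjamini-Hochberg adjustment over every gene seen (RPKM over 0) in no fewer than 2 fitted samples, with a threshold of 0.05. OMN+ against SC+ used the 12 GFP-positive samples with no covariate, and the other contrasts all 24 samples in 4 groups. The replicate-set contrast added the set as a term. The limma step was tested on simulated data. Depth was recovered from RPKM steps in 5911 genes with 1 transcript in GENCODE M21, and no counts were modelled since the steps depend on transcript length. Tables and figures used Python 3.11.15, pandas 2.3.3, numpy 2.4.6, scipy 1.17.1 and matplotlib 3.10.9.

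Genes were named if they passed in a contrast (at most 10 per direction and list), were the 2 highest of a complex, were mitochondrial or were complex IV isoforms; of the pathway lists at most 5 per contrast. Members and lists were chosen with earlier results of these data known. The replicate numbers were taken as pairs within a culture: same-numbered fractions deviated together in 6 of 6 pairs in both cultures (correlations 0.38 to 0.73 in oculomotor and 0.42 to 0.66 in spinal cultures, over 11950 genes). The own number was closest for 6 of 6 oculomotor and 5 of 6 spinal GFP-positive samples. Deviations were taken from group means, so they include the replicate sets. In oculomotor replicates 5 and 6 the own number gave 0.71 and 0.73, and the closest other number 0.69 and 0.70. Alternatives were another pseudocount, filter, scaling, replicate block, sample weights, replicate sets, fit of all samples and leaving out each sample.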

Additional observations from a re-analysis of the deposited data

Results flagged for a closer look

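Within 148 groups of 6 samples, 8 had a sample far from the others by Dixon's test, which chance alone gives in about 1 in 20 groups. For Cox8b these were OMN− replicate 6 (0.448 RPKM) and SC+ replicate 2 (3.58 RPKM), each the only sample of its group above 0. Where all other values are 0 the test flags any value above 0, so that rate does not apply to these Cox8b groups. For Cox6b2 the flagged samples were OMN+ replicate 4, low at 1.28 RPKM, and SC+ replicate 4, high at 104.4 RPKM. Ndufs6 was low in replicate 2 of both spinal fractions, at 198.2 RPKM in SC+ and 81.7 RPKM in SC−, the samples with 17.8 and 68.8% of summed RPKM in the 3 gene models. In OMN+ replicate 3, mt-Nd2 (162.3 RPKM) and mt-Nd5 (63.5 RPKM) were low.

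For 2 members the difference between the sorted fractions differed between the cultures only when samples were paired by number, where 2.04% of all genes passed. The interaction was −1.15 in log2 units for Atp5g1 and −2.24 for Cox6b2, oculomotor minus spinal, by limma (adjusted p 0.01978 and 0.03541 paired, 0.822 and 0.4559 unpaired). Paired and without the 3 spinal samples, the adjusted p was 0.01736 and 0.08709. Over 11 settings other than leaving out 1 sample, Atp5g1 passed in 4 and Cox6b2 in 3.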

How the results depend on the processing

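No mitochondrial member passed between groups under any alternative. Between OMN+ and SC+, where no nuclear member passed, 1 (Cox8b) passed with a pseudocount of 0.1 RPKM, with a mean of at least 1 RPKM, with totals rescaled without the mitochondrial rows and 3 gene models, with sample weights and in the fit of all 24 samples, and 0 to 1 with 1 sample left out (Cox8b without SC+ replicate 2). Between OMN+ and OMN−, where 2 passed, 4 passed with sample weights, 0 in replicates 1 to 4 alone, 1 in replicates 5 and 6 alone, and 2 to 3 with 1 sample left out (Ndufs6 added without SC− replicate 2, adjusted p 0.01858). For the interaction, 1 passed with a mean of at least 1 RPKM, 1 with sample weights and 0 to 1 with 1 sample left out (Cox8b without SC+ replicate 2). The causes of these changes were not tested.

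With the replicate block, 9 nuclear members passed between OMN+ and OMN−, 6 with the rescaled totals as well 18 with median-ratio scaling as well and 17 without the 3 spinal samples; the interaction gave 2, 3, 4 and 2. The 3 combined settings were chosen after seeing the data, as was leaving out the 3 spinal samples. OMN− and SC− share only numbers (correlations from −0.04 to 0.61), as do OMN+ and SC+ (from −0.17 to 0.71), with 2 and 1 of 6 samples closest to their own number. The block there gave 1 member (Atp5o) and 0. It changed no other call. Between the replicate sets, the nuclear calls were 45 to 56 and the mitochondrial 7 to 9 with 1 sample left out, and 67 (63 higher) and 9 with median-ratio scaling, under which all genes had 2440 higher and 2917 lower calls against 1635 and 3994. Rescaled totals shifted the median of all genes to −0.12 between OMN+ and SC+, 0.14 in the interaction and −0.20 between the sets. The difference in mitochondrial share between the fractions kept its sign in every alternative taken alone. Over protein-coding rows and without the 3 spinal samples together, the share was 5.86% in SC+ and 6.37% in SC−, the other sign. The difference of OMN+ from SC+ changed sign among the single alternatives. It was −1.37 percentage points in all samples, −3.32 in replicates 1 to 4 and 2.53 in replicates 5 and 6. It was 0.58 over protein-coding rows alone and −2.78 to 0.68 with 1 sample left out. None of these share differences was tested. The median nuclear difference between the spinal fractions also changed sign, from 0.18 to −0.12 without the 3 spinal samples. No count model was run, since the files hold no counts.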
